A study of Arabidopsis halleri with 24 samples.

Results

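Root and rosette leaf transcript signals were compared within one bulk of plants that accumulated zinc. The RNA was recorded as from Arabidopsis halleri, a relative of A. thaliana known for hyperaccumulating zinc and cadmium in its leaves. The comparison used 12 of the 24 arrays of the series, chosen by their titles: 6 of whole root systems (3 on high-zinc medium and 3 on control medium) and 6 of rosette leaves (3 on high-zinc medium and 3 on control medium). High zinc was 25 µM by the treatment labels. All groups grew in a growth room on full mineral medium with 10 h of light a day. The labels gave the same developmental stage for roots and leaves, in both media and both bulks. The other 12 arrays held the same organs and media from a bulk that did not accumulate zinc, and they enter below only where the 2 bulks are set against each other. As background, such bulks are pools of plants descended from crossing A. halleri with A. petraea, a relative that does not accumulate zinc; the titles do not state this parentage, and the number of plants in each bulk is not given in the sources used here. Nor do the labels say whether replicates came from separate plants, so the p-values measure the spread between arrays, which may be technical.

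Roots take up water and mineral ions and anchor the plant, and they build specialised walls in root hairs, the endodermis and the xylem. Leaves hold green chloroplasts, in which antenna proteins pass light energy to the photosystems, electron transport drives ATP synthase, and the Calvin cycle fixes carbon. The plastids of roots are mostly not green, carry the same genome and serve other synthesis. In hyperaccumulating A. halleri, roots load zinc into the xylem and leaves store it, so the difference between the organs is the setting in which accumulation takes place.

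The arrays were ATH1 GeneChips, whose probes were designed on A. thaliana, and the values are linear signals in intensity units from MAS5, the array maker's summary of the probes of one transcript. All changes are root minus leaf on log2(signal + 16), with both zinc levels at equal weight and tested with limma. Across the 12 arrays the correlation of log2 values lay between 0.937 and 0.959 within a root group, between 0.868 and 0.963 within a leaf group, and between 0.691 and 0.776 for a root array with a leaf array. Replicate 3 correlated least with the others of its group in leaves, at a mean of 0.889 under high zinc and 0.913 in control medium, so counts of calls are also given without these 2 leaf arrays where they differ by more than 1.5 times. The log2 ratio of 3' to 5' signal, a sign of RNA integrity, was 1.34 to 1.54 for GAPDH in roots and 1.35 to 1.67 in leaves. For actin the ratio was 1.03 to 1.36 in roots and 1.11 to 1.52 in leaves, so the ranges of the organs overlapped for both genes. The number of arrays limits the precision, and the intensities have no counting depth.

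The organs differed at 8584 of 22746 probe sets at an adjusted p under 0.05, which is 37.7% of those tested. Of these, 5152 were higher in roots (22.7%) and 3432 were lower (15.1%). Changes of more than 2-fold in this call made up 2165 higher (9.52%) and 1763 lower (7.75%) probe sets. All 6 root arrays lay above all 6 leaf arrays at 2876 probe sets (12.6%) and below them at 2088 (9.18%). The median change over all probe sets was 0.04. In RNA from whole organs, fewer cells of a type and less RNA per cell cannot be told apart.

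The organ identities matched the labels in the named photosynthesis genes, and other marker lists were less uniform. All 3 measured CP29 antenna genes, all 6 nuclear genes of the photosystems and the chloroplast ATP synthase, and all 3 Calvin cycle genes were lower in roots, without overlap of the arrays. The mean log2(signal + 16) of these 12 genes lay between 5.41 and 5.70 over the root arrays and between 10.18 and 11.34 over the leaf arrays. Of the 3 measured root hair and root epidermis genes, EXPA18 (1.28), an expansin of root hairs, and the peroxidase gene AT1G30870 (1.78) rose, and EXPA7 stood at 0.59 without passing the test. Of 2 photorespiration genes, AT1G11860 (-0.86) was lower in roots and AT1G80380 (1.51) was higher. AT1G80380 missed the threshold in 9 alternatives. Of 4 leaf epidermis, stomata and wax genes, SPCH (-0.67) was lower and 3 did not pass.

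On the log2(signal + 16) scale the largest rise belonged to AT4G33720, which encodes a secreted protein of the CAP superfamily, the family of pathogenesis-related protein 1. Its signal had a lowest, median and highest value of 4696, 5760 and 6574 in roots, against 4.22, 18.3 and 30.7 in leaves. Every root array thus stood far above every leaf array, with a log2 change of 7.46 (SE 0.20, limma adjusted p = 1.3e-10, n = 6 each). The neighbouring family member AT4G33710 had signals of 776, 2151 and 3612 in roots and 27.2, 41.4 and 71.3 in leaves (5.01). AT3G13610 encodes the feruloyl-CoA hydroxylase F6'H1, the entry enzyme of scopoletin and other coumarins that A. thaliana roots secrete to mobilise iron. Its signals were 972, 2858 and 4071 in roots, against 2.68, 3.12 and 3.83 in leaves, and the log2 change was 6.88 (SE 0.28, limma adjusted p = 3.9e-09, n = 6 each). The order of these genes depends on the number added before the logarithm: with 1 added AT4G33720 changed by 8.49 and AT3G13610 by 9.07, and with 64 added by 6.13 and 5.10. Within roots the lowest AT3G13610 signals were those of control arrays, as the plot of signals by array shows.

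**Figure D1:**
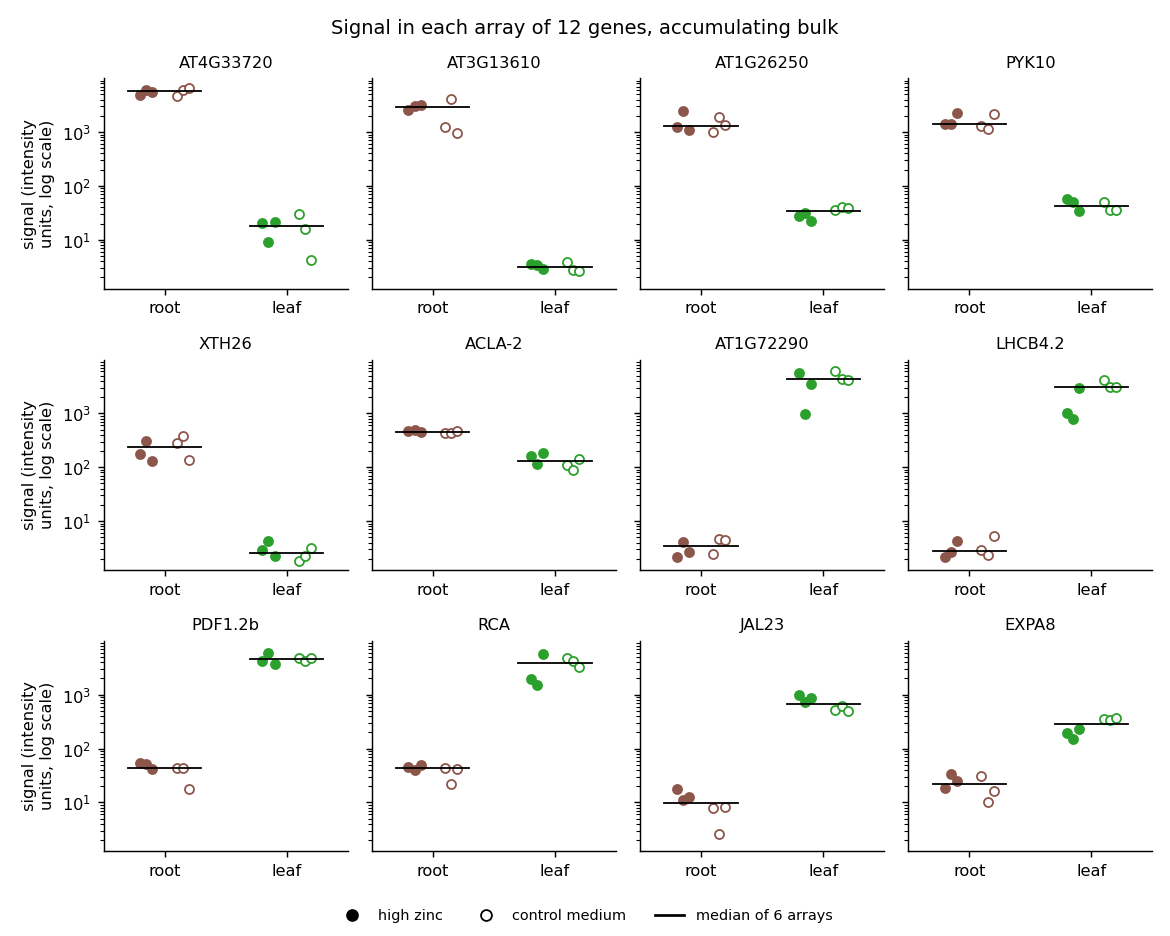
Signal (intensity units, log scale) of 12 genes in each of the 12 arrays of the accumulating bulk, roots left and leaves right, with filled circles for high zinc, open circles for control medium and a bar at the median of 6 arrays. In all 12 genes the root and leaf arrays do not overlap: the first 6 panels are higher in roots, from AT4G33720 with root signals of 4696 to 6574, and the last 6 are higher in leaves, from AT1G72290 with leaf signals of 990 to 6122.

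Several of the other large rises were genes of secreted wall and defence proteins. The extensin-like gene AT1G26250, of the hydroxyproline-rich glycoproteins that stiffen walls, gave 991, 1292 and 2505 in roots and 22.6, 33.8 and 40.1 in leaves (log2 change 4.91, SE 0.21). The germin-like gene AT1G18980 changed by 4.83, and the class III peroxidase genes AT3G01190, AT5G19890 and AT5G15180 by 4.82, 4.64 and 4.35. Class III peroxidases are secreted enzymes that cross-link or loosen wall polymers with hydrogen peroxide. PYK10, the beta-glucosidase stored in the ER bodies of roots, had signals of 1160, 1412 and 2257 in roots and 34, 42.6 and 56.8 in leaves (4.74, SE 0.19). AT1G12010, which encodes an ACC oxidase, the last enzyme of ethylene synthesis, rose by 4.50, and AT3G19390, a papain-like cysteine protease gene, by 4.45. AT5G05960, of the lipid-transfer protein fold, rose by 4.28. AT3G62040, AT1G49310 and AT5G10580 rose by 5.15, 5.09 and 4.69. In all 15 of the largest rises the root arrays lay above all leaf arrays.

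The largest fall was not a photosynthesis gene in the strict sense. AT1G72290 encodes a Kunitz-type protein known in A. thaliana as a water-soluble chlorophyll-binding protein and protease inhibitor. Its signals were 2.13, 3.40 and 4.58 in roots, against 990, 4284 and 6122 in leaves, with a log2 change of -7.54 (SE 0.33, limma adjusted p = 6.8e-09, n = 6 each). The lowest leaf value came from a high-zinc array and still exceeded every root value. LHCB4.2, one of the genes for the CP29 antenna that links the outer light-harvesting complex to photosystem II, had 2.2, 2.76 and 5.27 in roots and 790, 3032 and 4197 in leaves (-6.81, SE 0.27). LHCB4.1 fell by 6.52 on the log2 scale. LHCB4.3, the third CP29 gene, gave 51.1, 57.6 and 83.0 in roots and 168, 426 and 685 in leaves, a smaller change of -2.24. The CP29 genes thus shared a direction and differed in size within the probe sets that measured them.

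Among the nuclear genes of the thylakoid complexes, PSAN (a photosystem I subunit) changed by -6.55, PSBY and PSBW (photosystem II subunits) by -6.37 and -5.72, ATPC1 (the gamma subunit of the chloroplast ATP synthase) by -6.23, PSAE-1 by -5.30 and the photosystem II assembly gene PSB27 by -4.60. PSBY had 26.1, 36.4 and 42.3 in roots and 2195, 4940 and 5908 in leaves. For carbon fixation, the Rubisco activase gene RCA had 22.2, 42.9 and 49.0 in roots and 1503, 3802 and 5771 in leaves (-5.87, SE 0.28). SBPASE and PRK, which encode the regenerating enzymes sedoheptulose-bisphosphatase and phosphoribulokinase, changed by -4.09 and -3.98. AT3G47650, which encodes the Rubisco assembly chaperone BSD2, changed by -5.62. The leaf spread of RCA, PRK and SBPASE was wide, with the highest leaf signals of PRK and SBPASE at 1977 and 2710 and the lowest at 306 and 482, yet every one exceeded the root signals. The 12 genes of the antenna, photosystem and Calvin lists had a median change of -5.80, against 0.04 over all probe sets.

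Other genes with very large falls lay outside photosynthesis. PDF1.2b, a defensin gene of the jasmonate and ethylene response, had 17.9, 43.8 and 54.6 in roots and 3694, 4513 and 5830 in leaves (-6.33, SE 0.17). Its probe set is one that can cross-hybridise with related genes, so the signal may include other defensin transcripts. Of 13 defensin genes, 2 rose (15.4%) and 3 fell (23.1%), against 22.7% and 15.1% of all probe sets. PDF2.5 (1.42) and LCR69 (1.14) were the defensin genes higher in roots. LCR69 missed the threshold with either of 2 single arrays left out. CCL, a gene whose unstable transcript follows the clock, changed by -5.74, AT1G09310 by -5.73 and the chitinase family gene AT2G43590 by -5.33. The 15 largest falls all had root arrays below every leaf array. The size of changes at such low signals depends on the number added before the logarithm: for AT1G72290 the change was -9.71 with 1 added and -5.77 with 64 added, and for LHCB4.2 -9.01 and -5.04.

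**Figure D2:**
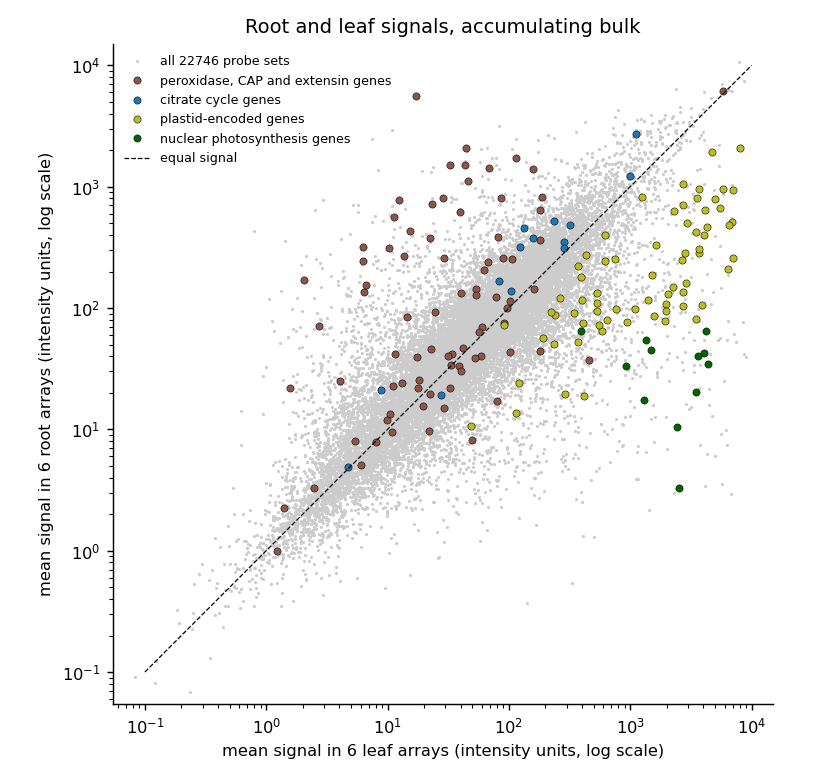
Mean signal over the 6 root arrays (vertical axis) against mean signal over the 6 leaf arrays (horizontal axis), both in intensity units on log scales, for all 22746 probe sets (grey) with 4 sets of genes in colour and a dashed line at equal signal. Nuclear photosynthesis genes lie furthest below the line, with a median change of -5.80, plastid-encoded genes lie nearer to it with a median of -2.67, and the peroxidase, CAP and extensin genes lie on both sides of the line, 20 of the 82 below it, and reach far above it.

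Plastid-encoded transcripts were lower in roots at 63 of 69 measured genes, and none was higher, against 15.1% lower among all probe sets. Their median change was -2.67, and root arrays lay below all leaf arrays for 60 of them, against 9.18% of all probe sets. Without the leaf arrays of replicate 3 the number of these genes past the threshold was 61. How these transcripts, which mostly lack long poly(A) tails, were primed for labelling is not given in the sources used here. The plastid genome codes for subunits of the thylakoid complexes and for part of the plastid's own gene expression system, and the changes are given below by the letters that begin the gene names, a grouping chosen after the values were seen.

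All 15 photosystem II (psb) genes fell, with a median of -3.97. For psbA, the gene of the D1 reaction centre protein, the signals were 51.4, 63.5 and 146 in roots and 1297, 2093 and 2432 in leaves (-4.39, SE 0.24). The 5 photosystem I (psa) genes had a median of -3.21, led by psaA at -5.37, with signals of 9.73, 84.0 and 155 in roots and 1688, 3324 and 5003 in leaves. The 6 ATP synthase (atp) genes had a median of -3.22, and atpH changed most, by -4.41. The 6 cytochrome b6f (pet) genes had a median of -2.82 and the 10 genes of the NDH complex (ndh), which drives cyclic electron flow, one of -2.65. All 27 genes of these last 4 classes passed the test. The genes of the gene expression system showed smaller changes: the 4 subunits of the plastid RNA polymerase (rpo) all fell, with a median of -1.35 (2 of them fell without the leaf arrays of replicate 3), and 9 of 15 ribosomal protein genes (rpl and rps) fell, with a median of -1.34. The 6 plastid-encoded genes that did not pass were all of ribosomal proteins: rpl36 (-0.95), rps19 (-0.41), rpl14 (-0.39), rps3 (-0.33), rpl22 (-0.30) and rps14 (-0.29). The ribosomal class was itself spread, since rps4 changed by -3.44 and rps18 by -2.84. rbcL, which encodes the large Rubisco subunit, changed by -1.62, while the nuclear activase gene RCA changed by -5.87. Among the remaining plastid genes, accD, for a subunit of the enzyme that starts fatty acid synthesis, changed by -1.98 and clpP, for a protease subunit, by -1.26.

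**Figure D3:**
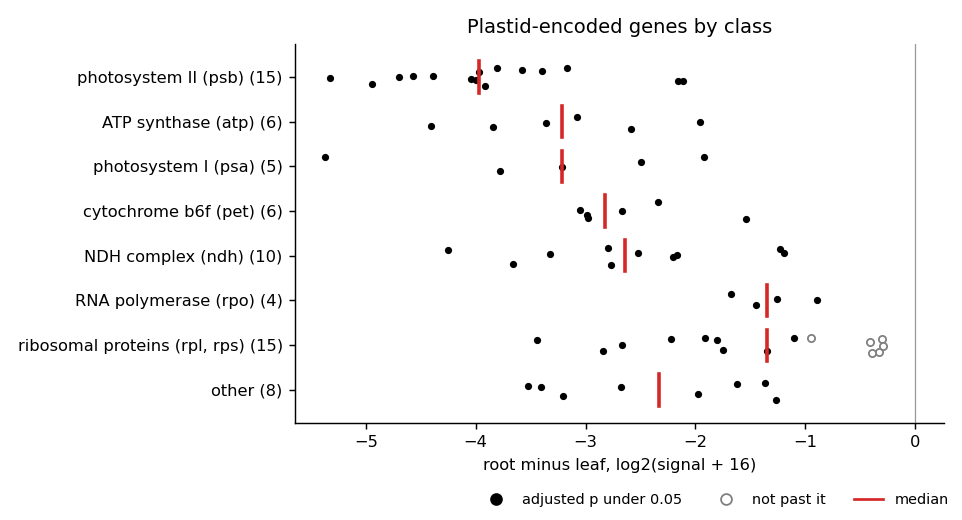
Root minus leaf change on log2(signal + 16) of each of the 69 plastid-encoded genes (points; open where the adjusted p was not under 0.05), by class with the number of genes in brackets and a red bar at the median. Medians run from -3.97 for photosystem II to -1.35 and -1.34 for the RNA polymerase and the ribosomal proteins, and all 6 open points are ribosomal protein genes.

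Nuclear genes that build or regulate the thylakoid followed the same direction, with 27 of 29 lower (93.1%), 1 higher and a median of -2.23. Among all probe sets 15.1% were lower. The 27 include PSB27 (-4.60), which was also among the 6 nuclear genes of the photosystems and ATP synthase above. TROL, which anchors ferredoxin-NADP reductase at the membrane, had 3.08, 4.71 and 5.74 in roots and 188, 290 and 356 in leaves (-3.79, SE 0.15). PAM68, a photosystem II assembly factor, changed by -3.50, the NDH subunit gene NdhS by -3.47 and CaS, for a calcium-sensing thylakoid protein, by -3.15. The gene that rose was TAAC (0.62), whose product was described as a thylakoid ATP/ADP carrier, and LPA66 (-0.12), a plastid RNA editing factor, did not pass. In pigment synthesis 5 of 6 genes fell (83.3%). They were PORB (-4.06) and CHLM (-2.06), enzymes of the chlorophyll branch, CHLI2 (-1.43), the lycopene cyclase gene LYC (-0.78) and HEMB1 (-0.70), of the common early steps. PORB had 27.8, 42.5 and 53.3 in roots and 493, 911 and 1566 in leaves. HEMA2, an isoform of the first committed enzyme of haem and chlorophyll synthesis that is known from A. thaliana roots, stood at -0.04 and did not pass.

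Calls among mitochondrion-encoded genes and among nuclear genes for the citrate cycle and linked enzymes went in opposite directions. Of 16 mitochondrion-encoded genes 7 were lower in roots (43.8%) and none was higher, with a median of -0.56. Among all probe sets 15.1% were lower and 22.7% higher. Without the leaf arrays of replicate 3 the count of mitochondrion-encoded genes lower in roots was 12. The largest change was that of cox2, a cytochrome oxidase subunit gene, with 45.6, 77.8 and 122 in roots and 132, 359 and 500 in leaves (-1.77, SE 0.30), and cox1 changed by -1.01. In contrast, 7 of 14 nuclear genes for the citrate cycle and linked enzymes (50.0%) were higher in roots and none was lower, with a median of 0.59. ACLA-2, a subunit of ATP citrate lyase, which makes cytosolic acetyl-CoA, had 437, 452 and 484 in roots and 87.6, 129 and 182 in leaves (1.7, SE 0.14). The other A subunit genes ACLA-3 (1.18) and ACLA-1 (0.94) rose too, as did cICDH (1.34), for the cytosolic isocitrate dehydrogenase, IDH-VI (1.26), SDH1-1 (1.18) and SDH2-2 (0.58). For all 7 the root arrays lay above all leaf arrays, as they did at 12.6% of all probe sets. The other 7 genes of this list did not pass, among them the ATP citrate lyase gene ACLB-1 (0.13) and IDH-IV (-0.36).

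The extensins, peroxidases and CAP proteins are secreted to the wall or the space outside the cell. All 10 measured extensins rose, against 22.7% of all probe sets, with a median of 3.1. AT1G26240 (4.14) and AT3G28550 (3.70) followed AT1G26250, and some extensin probe sets can cross-hybridise within this repetitive family. Of 53 class III peroxidases 25 rose (47.2%) and 4 fell (7.55%), with a median of 0.50. Of the 53, 23 had all root arrays above all leaf arrays, against 12.6% of all probe sets. AT4G33420 had 851, 1566 and 1695 in roots and 31.6, 61.2 and 119 in leaves (4.12). The peroxidases that fell were PRX52 (-2.78), which acts in lignin formation in A. thaliana, AT5G64120 (-1.71), AT5G19880 (-1.41) and AT1G71695 (-0.91). Of 19 CAP genes 8 rose and 1 fell: AT5G26130 (4.18) and AT4G25790 (4.14) rose, and AT5G66590 had 33.2, 45.5 and 50.6 in roots and 80.7, 171 and 298 in leaves (-1.60).

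Further wall families held members past the threshold on both sides. Of all probe sets, 22.7% were higher and 15.1% lower. XTH26, a xyloglucan endotransglucosylase gene, had 132, 233 and 373 in roots and 1.85, 2.60 and 4.21 in leaves (3.65, SE 0.25). Of 9 XTH genes 4 rose and 1 fell. XTH18 (0.64), which rose, missed the threshold in 12 alternatives, and XTH33 (-0.46), which fell, in 6. Of 15 GH9 endoglucanase genes 5 rose, among them GH9B13 (1.61) and the root hair gene GH9C1 (1.45), and GH9B16 (-0.78) fell. GH9C3 (0.68), another of the rises, missed the threshold in 18 alternatives. Without the leaf arrays of replicate 3 the rises were 3 in each of these 2 families. Of 18 expansins, which loosen walls during growth, EXLB1 (1.52), EXPA20 (1.28), EXPA18 (1.28), EXPA15 (1.23) and EXPB3 (1.15) rose. EXPA8 went the other way, with 10.4, 21.7 and 33.2 in roots and 151, 280 and 368 in leaves (-2.87, SE 0.17). In the TBL family, of wall polysaccharide acetyltransferases, 10 of 22 rose and 3 fell (7 and 5 with median centring): TBL36 had 329, 440 and 549 in roots and 50.8, 70.8 and 101 in leaves (2.39), and TBL26 56.8, 65.4 and 104 in roots and 374, 444 and 2801 in leaves (-2.84). Without the leaf arrays of replicate 3 the TBL counts were 9 and 1.

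Dirigent proteins, which steer the coupling of lignin and lignan units, rose at 5 of 14 genes (35.7%) and fell at 1 (7.14%). The shares of all probe sets were 22.7% and 15.1%. AT4G13580 had 126, 154 and 188 in roots and 1.95, 4.50 and 4.71 in leaves (3.09, SE 0.12), while AT3G13662 fell (-1.36). AT2G21100 and AT2G39430 rose by 1.58 and 1.48. Germin-like genes rose at 6 of 12 and fell at 1 (5 and 4 without the leaf arrays of replicate 3, 5 and 2 with median centring), with AT3G05950 at 3.87.

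**Figure D4:**
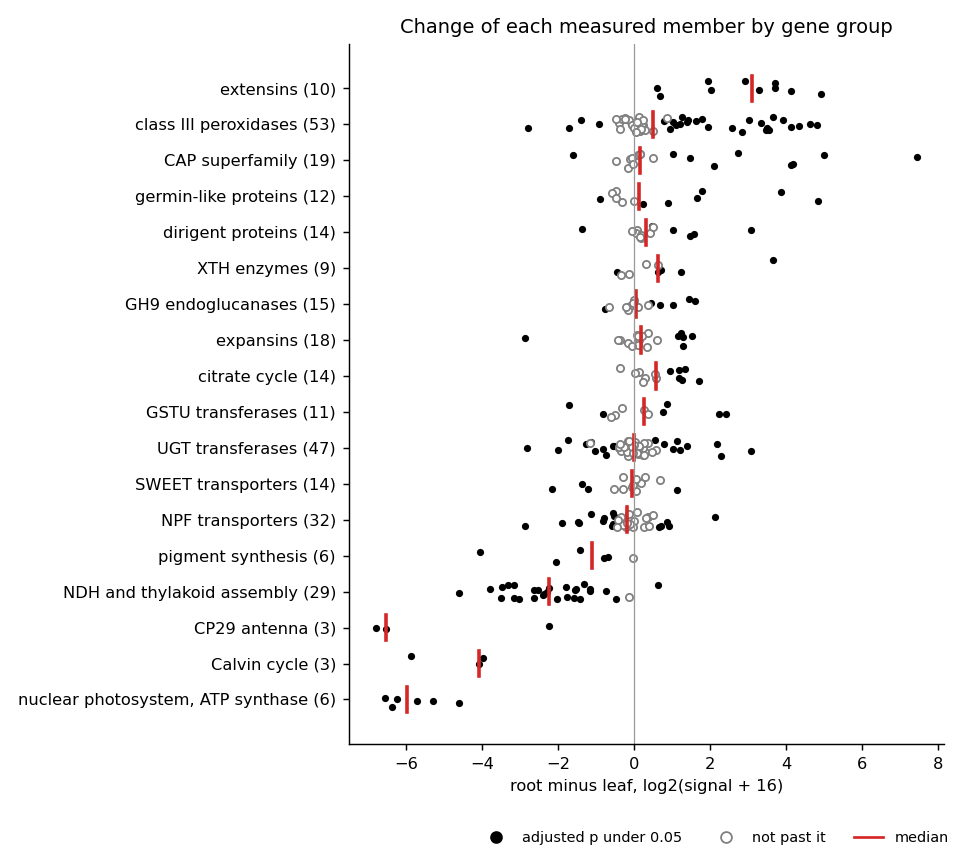
Root minus leaf change on log2(signal + 16) of each measured member of 18 gene groups (points; open where the adjusted p was not under 0.05), with the number of members in brackets and a red bar at the median. All 10 extensins lie to the right of 0, all 12 antenna, Calvin and photosystem genes lie to the left, and the peroxidase, expansin, GSTU, UGT, SWEET and NPF groups hold members past the threshold on both sides.

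The ER body, a store of beta-glucosidases that meet their substrates when tissue is damaged, was represented by 6 genes, of which 3 rose and 2 fell. NAI2, which is needed for ER bodies to form, had 667, 836 and 1001 in roots and 31.9, 44.8 and 131 in leaves (3.64, SE 0.22) and rose as PYK10 did. JAL23, one of the jacalin-related lectins of the PYK10 complex, had 2.57, 9.64 and 17.6 in roots and 507, 674 and 988 in leaves (-4.78, SE 0.13). The lectin gene thus differed between the organs by as much as PYK10 but in the opposite direction. In the wider BGLU family of 21 beta-glucosidases 5 rose (23.8%) and 3 fell (14.3%), near the 22.7% and 15.1% of all probe sets. With median centring the BGLU counts were 4 and 5. BGLU15 (1.13) and BGLU44 (-1.61) stood on opposite sides.

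Families of detoxification and secondary metabolism held members on both sides as well. Of 47 UGT glycosyltransferases 9 rose (19.1%) and 10 fell (21.3%), shares near those of all probe sets. UGT72E3, which glucosylates lignin precursors, had 44.1, 186 and 222 in roots and 2.45, 3.52 and 5.83 in leaves (3.07, SE 0.26), and UGT71C1 rose by 2.18. UGT88A1 had 75.5, 89.4 and 108 in roots and 477, 776 and 1166 in leaves (-2.82, SE 0.14), and UGT85A5 (-2.01) and UGT85A2 (-1.74) fell. Of 11 GSTU glutathione transferases GSTU22 (2.41), GSTU21 (2.23), GSTU28 (0.85) and GSTU27 (0.77) rose, and GSTU16 (-1.70) and GSTU15 (-0.82) fell. With median centring the falls were 4. CYP71B22, a cytochrome P450 gene, had 12.1, 31.1 and 72.2 in roots and 398, 854 and 1444 in leaves (-4.13, SE 0.34), while 15 of the 19 measured CYP71B genes did not pass. Of 29 serine carboxypeptidase-like genes, 7 rose (24.1%) and 3 fell (10.3%), also near those of all probe sets, with scpl31 at 2.96 and SCPL34 at -2.12.

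Of 14 SWEET genes, which encode sugar transporters, 3 fell and 1 rose, and the share that fell (21.4%) compares with 15.1% of all probe sets. SWEET11, which exports sucrose for phloem loading in A. thaliana leaves, had 79.3, 116 and 183 in roots and 393, 530 and 909 in leaves (-2.17, SE 0.21). SWEET1 (-1.38) and SWEET4 (-1.22) fell with it, and SWEET14 rose by 1.14. Of 32 NPF transporters of nitrate, peptides and other solutes 11 fell (34.4%) and 5 rose (15.6%), with a median of -0.20. AT3G21670 had 14.1, 27.2 and 52.5 in roots and 113, 343 and 932 in leaves (-2.86, SE 0.47), and AT1G68570 fell by 1.9 on the log2 scale. GTR1, a glucosinolate transporter gene, changed by -1.15. AT1G59740 had 289, 688 and 1253 in roots and 104, 145 and 154 in leaves (2.13, SE 0.30). Among vacuolar proton pump and ESCRT sorting genes, 8 of 15 rose (53.3%) and 1 fell (6.67%), against 22.7% and 15.1% of all probe sets. The counts were 5 and 1 with median centring, and 8 and 2 without the leaf arrays of replicate 3. None of the rises was a proton pump gene: VHA-A1 (0.29), VHA-A2 (0.16) and VHA-A3 (-0.07) did not pass. The ESCRT gene VPS2.2 changed most, by 1.79.

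Few metal genes could be named. For the counts that follow, 22.7% of all probe sets were higher and 15.1% lower. Of 5 zinc and metal transport genes, ZIP9, of the family that imports zinc and iron, rose, with 104, 130 and 280 in roots and 46.6, 60.2 and 71.7 in leaves (1.15, SE 0.23, limma adjusted p = 0.0018, n = 6 each). MTP11, a manganese carrier gene in A. thaliana, had 164, 206 and 231 in roots and 243, 436 and 557 in leaves (-0.99, SE 0.18). AT2G04620, a further member of the cation diffusion family, changed by -0.39 and passed, but missed the threshold in 7 alternatives; ZIP6 stood at -0.25 and AT3G58060 at 0.35, and neither of these last genes passed. Of 6 measured iron genes, from a list of 40, 4 rose (66.7%) and none fell. After F6'H1, the coumarin genes AT3G12900 (2.79), for scopoletin 8-hydroxylase, and AT1G28680 (2.39), for coumarin synthase, rose without overlap of the arrays. AT3G12900 had 120, 859 and 1282 in roots and 51.4, 65.0 and 77.7 in leaves. BHLH101, a regulator of the iron deficiency response, rose by 0.89 with overlapping arrays, while PYE (-0.27) and AT1G47400 (-0.36) did not pass. The metallothionein gene MT1C had 374, 573 and 739 in roots and 78.9, 142 and 192 in leaves (1.95, SE 0.20), and the copper chaperone gene CCS (0.50) did not pass. In sulfate assimilation the ATP sulfurylase gene APS4 rose by 1.46, APS3 (0.28) did not pass, and SIR, for sulfite reductase, changed by -0.59 and passed. With quantile normalization SIR changed by -0.42 and missed the threshold (limma adjusted p = 0.0948), as it did with any of 3 single arrays left out.

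Hormone and transcription factor genes gave smaller counts. Of 16 auxin genes 3 rose (18.8%) and 2 fell (12.5%), near the 22.7% and 15.1% of all probe sets. Without the leaf arrays of replicate 3 the auxin counts were 2 and 4. GH3.17, which conjugates auxin to glutamate, had 57.4, 114 and 138 in roots and 1.53, 3.02 and 12.2 in leaves (2.52, SE 0.21), and the auxin synthesis gene YUC6 rose by 1.36. IAA29, an auxin response repressor, fell, with 24.2, 34.8 and 42.0 in roots and 75.0, 155 and 235 in leaves (-1.76). In the leaf polarity list YAB5, of the YABBY factors of the lower leaf side, had 1.95, 15.1 and 23.6 in roots and 88.3, 149 and 175 in leaves (-2.46), and YAB3 changed by -0.81. PHV, a factor of the upper leaf side, was higher in roots (0.97). Of 8 COR, LEA and LTI genes of cold and dehydration, 2 fell (25.0%), 1 rose (12.5%) and 5 did not pass. Those that fell were COR15B (-3.23) and COR15A (-3.05), which encode chloroplast proteins that protect membranes. COR47 (0.37) rose but missed the threshold in 12 alternatives. Without the leaf arrays of replicate 3 none of these genes rose and 4 fell. The clock gene GI rose by 1.12. Its leaf signals spanned 117 to 459.

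Several further families held members on both sides. For comparison, 22.7% of all probe sets were higher and 15.1% lower. Of 15 tetraspanins, membrane proteins of cell contacts, 5 fell (33.3%) and 1 rose (6.67%). TET3 had 188, 233 and 277 in roots and 342, 562 and 707 in leaves (-1.14, SE 0.14), and TET6 rose by 0.79. Of 15 IQD calmodulin-binding genes 4 rose (26.7%) and 2 fell (13.3%), near the shares of all probe sets. IQD24 had 2.07, 4.40 and 10.1 in roots and 46.4, 64.4 and 93.0 in leaves (-1.97, SE 0.17), whereas iqd32 had 239, 263 and 337 in roots and 11.0, 50.2 and 119 in leaves (2.12, SE 0.32). IQD24 and iqd32 thus differed between the organs in opposite directions. Of 24 ubiquitin-conjugating enzymes and ubiquitin proteases 6 rose (25.0%) and 2 fell (8.33%), the rises near the share of all probe sets, and UBC20 (1.15) and UBC19 (-0.94) stood on opposite sides. Of 9 autophagy ATG8 genes 2 rose (22.2%) and 1 fell (11.1%), near the shares of all probe sets. Without the leaf arrays of replicate 3 the ATG8 counts were 1 and 2. ATG8H changed most (1.56). Of 12 subunits of the nuclear RNA polymerases 3 rose and none fell (3 and 2 without the leaf arrays of replicate 3), and NRPA1, the largest subunit of RNA polymerase I, changed by 1.03. Among 6 WRKY factors WRKY6 (-0.61) fell and none rose, but without the leaf arrays of replicate 3 the counts were 2 lower and 1 higher, and with median centring 2 lower. In secondary metabolism DFR (-0.78), of anthocyanin synthesis, was the 1 of 4 flavonoid genes that fell (2 without the leaf arrays of replicate 3 and with median centring), and 1 of 4 aliphatic glucosinolate genes fell (3 with median centring). APL3 (-1.40), for a starch synthesis subunit, fell. Its signals were 2.33, 7.09 and 22.6 in roots and 22.5, 39.3 and 108 in leaves, so the arrays met at the edge.

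The measured isoforms of actin and tubulin did not move as a block. The actin gene ACT11 had 112, 152 and 184 in roots and 18.9, 28.5 and 47.8 in leaves (1.85, SE 0.17), whereas ACT12 stood at 0.14 and did not pass. Of 7 tubulin genes 3 rose (42.9%) and none fell, against 22.7% higher and 15.1% lower among all probe sets. The tubulin rises were 5 without the leaf arrays of replicate 3 and 2 with median centring. TUB7 had 484, 540 and 677 in roots and 136, 202 and 282 in leaves (1.42), TUB1 changed by 0.66 and TUA1 by 0.42, each of which missed the threshold in 8 alternatives. TUA6 (0.46), TUB6 (0.46), TUB9 (0.20) and TUB5 (-0.10) did not pass. All 3 Aurora kinase genes, which act in cell division, were higher in roots, against 22.7% of all probe sets. AUR1 rose by 0.80, AUR2 by 0.67 and AUR3 by 0.61. Of 4 vacuolar processing enzymes, proteases that mature vacuolar proteins, GAMMA-VPE (-2.34) and DELTA-VPE (-0.40) were lower and ALPHA-VPE (0.98) was higher. BETA-VPE (0.08) did not pass. DELTA-VPE missed the threshold in 11 alternatives, and without the leaf arrays of replicate 3 only 1 of these genes was lower. Some abundant transcripts differed little: TPI, the cytosolic triosephosphate isomerase gene, stood at -0.07 (SE 0.17) and AT5G21090 at -0.07 (SE 0.23), neither passing the test, with signals above 1000 in both organs. With quantile normalization TPI stood at 0.51 and passed (limma adjusted p = 0.0205).

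The organ difference in each medium was taken as a contrast of the same model of 12 arrays. Under high zinc 4887 probe sets passed (21.5%), 2742 higher (12.1%) and 2145 lower (9.43%), and in control medium 5764 (25.3%), 3445 higher (15.1%) and 2319 lower (10.2%). These contrasts compare different arrays but share 1 estimate of spread per probe set, so their calls are not from separate tests. They had 3821 calls in the same direction, which is 78.2% of the high-zinc calls and 66.3% of the control calls, and Pearson's r between their changes across the 22746 probe sets was 0.919, as a description of probe sets that are not independent. AT4G33720 changed by 7.39 under high zinc and 7.53 in control medium, PYK10 by 4.75 and 4.73, and PSBW by -5.70 and -5.74. LHCB4.2 changed by -6.15 under high zinc and -7.46 in control medium, and AT3G13610 by 7.26 and 6.49. The probe sets called in opposite directions were AT5G22990, AT3G60760 and 254716_at, all with group means under 26.

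The test of the difference itself, the organ by zinc interaction, called 1 of 22746 probe sets (0.0044%), and 935 had an unadjusted p under 0.05. This was 264886_at, which has no single gene symbol in the probe table. Its high-zinc signals were 5.10, 1.98 and 1.73 in roots and 122, 75.8 and 105 in leaves. In control medium they were 4.63, 3.54 and 4.51 in roots and 8.56, 7.51 and 9.27 in leaves. The organ difference was -2.61 under high zinc and -0.27 in control medium, an interaction of -2.34 (SE 0.24, limma adjusted p = 0.0103). Of these 12 arrays only the high-zinc leaf arrays carried a signal above 10. The named genes with the smallest unadjusted p were AT3G60760 (1.71) and AT3G08490 (1.37) in one direction and AT5G22990 (-1.12) and AT5G23480 (-1.58) in the other, and none of these interactions passed after adjustment. AT3G08490 had 103, 75.4 and 90.0 in high-zinc roots and 15.2, 17.9 and 20.2 in high-zinc leaves, against 71.3, 54.9 and 73.4 in control roots and 63.0, 44.6 and 49.8 in control leaves. Without the leaf arrays of replicate 3 the interaction called 46 probe sets, 26 higher and 20 lower. With 2 leaf arrays left in each medium, that count rests on few arrays. With a filter on low signals, or without any one of several root or control leaf arrays, the count was 0.

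In the accumulating bulk 8584 probe sets differed between the organs, and in the non-accumulating bulk 8515 did (37.4%), 5083 higher (22.3%) and 3432 lower (15.1%). The means of the bulks come from different arrays, but the non-accumulating contrast was taken from the model of all 24 arrays, whose estimate of spread also uses the accumulating arrays. In that model the accumulating bulk had 9050 calls, so the counts of 8584 and 8515 come from unlike fits. The source name of replicate 1 of the non-accumulating control roots is the species and not a bulk; its title names the bulk and was followed here. The bulks had 6897 calls in the same direction, 80.3% of those of the accumulating bulk and 81.0% of those of the non-accumulating bulk, and r across all probe sets was 0.962. AT4G33720 changed by 7.46 in the accumulating and 7.47 in the non-accumulating bulk, AT1G72290 by -7.54 and -7.23, and LHCB4.2 by -6.81 and -6.71. The median of the 69 plastid-encoded genes was -2.67 in the accumulating and -2.60 in the non-accumulating bulk, and that of the extensins 3.1 and 3.03.

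**Figure D5:**
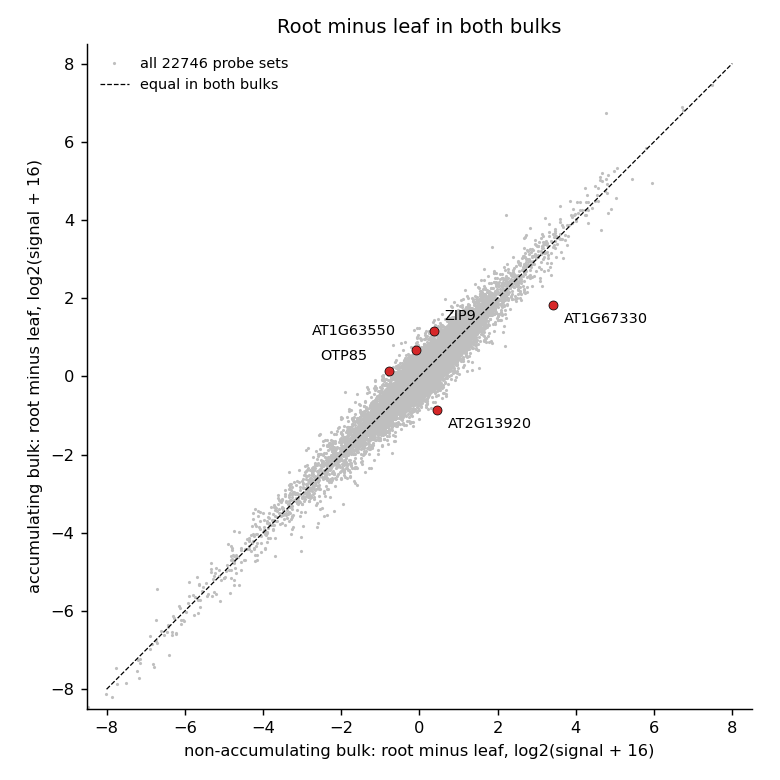
Root minus leaf change on log2(signal + 16) of each of 22746 probe sets in the accumulating bulk (vertical axis) and in the non-accumulating bulk (horizontal axis), with a dashed line at equal change and 5 genes in red. The cloud follows the line (r = 0.962), and AT1G67330 lies below it with changes of 1.82 and 3.41, ZIP9 above it with 1.15 and 0.36; neither passed the test of the difference after adjustment.

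The organ by bulk interaction, fitted over all 24 arrays, called 1 probe set (0.0044%), and 694 had an unadjusted p under 0.05. It was 251482_s_at, without a single gene symbol, at signals below 11 in all 24 arrays. Its change was -0.38 in the accumulating and 0.34 in the non-accumulating bulk (interaction -0.72, SE 0.10, limma adjusted p = 0.0163). With median centring, a filter on low signals or without the leaf arrays of replicate 3 no probe set passed. The other probe set called in opposite directions in the bulks was AT3G11320 (-0.42 and 0.40). Of the named genes, AT1G67330 and AT2G13920 had the smallest unadjusted p for a lower root minus leaf difference in the accumulating bulk, and OTP85, a plastid RNA editing factor gene, and AT1G63550 for a higher one. AT1G67330 had signals of 286, 391 and 486 in accumulating roots and 47.2, 102 and 151 in accumulating leaves. The non-accumulating leaves had group means of 50.4 under high zinc and 10.7 in control medium for that gene, and its interaction of -1.58 (SE 0.31) had a limma adjusted p of 0.367. For ZIP9 the interaction was 0.79 (SE 0.28), with a limma adjusted p of 0.999. Sequence differences between the parents of the cross can alter a signal on these probes, and their part in differences between the bulks was not tested.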

How the data were processed

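The authors' deposited values were linear MAS5 intensity signals for 22810 probe sets, per the submitters' processing notes and the file headers. Trimmed array means (2% from each end) were 100.0 in all arrays, so values were used as deposited. No MAS5 version, target scale or present calls are stated in the labels. Tests covered 22746 probe sets, without the 64 array controls. Samples were grouped by title. limma 3.58.1 in R 4.3.3 was fitted to group means of log2(signal + 16), with a variance trend and Benjamini-Hochberg adjustment at 0.05, without a filter on low signals. The organ and organ by zinc fits used the 12 arrays of the accumulating bulk, and the organ by bulk fit all 24.

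A platform annotation gave 1 gene symbol for 13513 probe sets, several for 503 and none for 8794. Only the first kind gave gene names, and 3 symbols on another chromosome than the listed gene were refused. For list counts the brightest probe set of a gene was used. Levels were compared within probe sets only, since A. thaliana probes bind A. halleri transcripts unevenly. Of 637 genes in 29 written lists, 83 had a probe set. The other 34 lists were set from the gene symbols and loci in the annotation. Members and lists were chosen with earlier results of these data known.

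Named were the 15 largest rises and falls past the threshold without overlap of the arrays, up to 5 members per list past it, members said not to pass, all isoform members, the 2 interaction genes of smallest p in each direction, and the 2 genes nearest 0 with signals above 1000. Any other gene was chosen after its values were seen. Same-numbered replicates of root and leaf did not deviate together in every pair (correlations of 0.0215 to 0.167), nor did those of high zinc and control medium (0.0184 to 0.264 in roots, -0.0247 to 0.432 in leaves), so the numbers were not taken as pairs. The fits were tested on simulated data. Alternatives covered the pseudocount, filters, scaling, probe sets, variance model, blocks and left-out arrays. Results for 1 gene family are not reported here.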

Additional observations from a re-analysis of the deposited data

Results flagged for a closer look

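264886_at differed between the media in its organ difference by a test of that difference: the organ by zinc interaction was -2.34, with signals of 75.8 to 122 in high-zinc leaves against at most 9.27 in the other 3 groups of the accumulating bulk. In the non-accumulating bulk its high-zinc leaf signals were 6.33, 34.2 and 95.1 and its control leaf signals 16.3, 39.2 and 5.20.

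251482_s_at differed between the bulks in its organ difference by the same kind of test: the organ by bulk interaction was -0.72, at signals between 0.426 and 10.3 over all 24 arrays.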

How the results depend on the processing

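The counts of root minus leaf calls in the accumulating bulk stayed within 1.5 times the main count under every alternative run, from 6745 with a filter on low signals in both organs to 10502 with array weights, and from 7539 to 9029 with single arrays left out. Within control medium the single-array range was 4138 to 6349, and within high zinc 3588 to 5529. With a replicate block the organ count was 8877, and 8328 with the replicate block within each zinc level. The share of calls that were higher in roots was 60.0% in the main analysis, 53.0% with median centring and 54.9% with quantile normalization.

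The interactions had too few calls to be stable. The organ by zinc count was 0 with a pseudocount of 1, either filter, all 24 arrays in 1 fit or the replicate block within each zinc level, 46 without the leaf arrays of replicate 3, and 0 to 20 with single arrays left out, 20 being without replicate 3 of the high-zinc leaves. The organ by bulk count was 0 with either filter, median centring, no variance trend, plain probe sets only, either replicate block or without the leaf arrays of replicate 3, 2 with array weights, and 0 to 2 with single arrays left out.

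None of the 30 largest rises and falls lost its call or direction under any alternative that kept its probe set. Of 212 named probe sets past the threshold, 24 lost the call under at least 1 alternative, among them AT2G04620, SIR, TUA1, TUB1 and LCR69. TPI passed with the opposite sign, at 0.51, with quantile normalization; the cause was not tested. Signals near background set only rough sizes, since the deposited values carry no detection calls.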
